A study of Mus musculus with 12 samples.

Results

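Zinc handling in the mouse intestinal epithelium was followed through 9 genes: the metallothioneins Mt1 and Mt2, the zinc importers Slc39a4, Slc39a5 and Slc39a14, and the exporters Slc30a1, Slc30a2, Slc30a4 and Slc30a10. They were taken by name from the 55487 genes of the count tables, by matching Ensembl identifiers to mouse symbols, and all 9 were found. All 9 also passed the filter on low counts, which left 19581 genes for testing.

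RNA was sequenced from 12 libraries of C57BL/6 mice, young adults of either sex, with 3 libraries in each of 4 groups. No drug treatment was named for any of them. SI crypts and LI crypts were freshly isolated from the small and large intestine, with 3 mice given per group. The methods for the cultures take both regions from the same mice, so the groups may share animals. Which samples share a mouse is not given, and the main fit treated all libraries as independent. SI monolayers and LI monolayers were such crypts grown for 24 h on a coated surface, with 3 samples of pooled wells per group. By the methods, crypts were seeded in medium with small-molecule inhibitors and no Noggin. Within hours this was replaced by medium with Wnt, EGF, Noggin and R-spondin. The study's methods give the jejunum as the source of small intestinal crypts, released with ice-cold EDTA. For large intestinal crypts they give a warm collagenase and dispase digestion, to which EDTA was then added. An inhibitor of the seeding medium was also present in that digestion. Region and isolation therefore cannot be told apart. Nothing in the sources used here says that the pooled wells came from separate cultures or animals, so p-values for the monolayers measure the spread between these samples, which may be technical.

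Zinc enters the cytosol through ZIP transporters, encoded by Slc39a genes, and leaves it for the outside or for vesicles through ZnT transporters, encoded by Slc30a genes. Metallothioneins are small, cysteine-rich proteins that bind zinc inside the cell, and their genes are switched on by the metal-sensing factor MTF1 through metal response elements in their promoters. In the gut, enterocytes take up dietary zinc at the brush border, and Paneth cells, at the base of small intestinal crypts, store zinc in their secretory granules.

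The metallothionein genes and Slc30a1 are the textbook targets of MTF1, so the sequence before their transcription starts is shown, as RefSeq gives it for GRCm38.p6. The 250 bases before each start are written 5′ to 3′ on the gene's strand, in lower case, with every match to the core of the metal response element in capitals.
Mt1 (chr8:94178839-94179088, + strand): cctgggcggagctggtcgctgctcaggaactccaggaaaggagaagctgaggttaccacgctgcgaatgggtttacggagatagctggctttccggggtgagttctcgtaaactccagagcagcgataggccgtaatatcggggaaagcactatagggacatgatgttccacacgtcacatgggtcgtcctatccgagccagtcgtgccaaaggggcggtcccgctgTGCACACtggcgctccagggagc
Mt2 (chr8:94172368-94172617, + strand): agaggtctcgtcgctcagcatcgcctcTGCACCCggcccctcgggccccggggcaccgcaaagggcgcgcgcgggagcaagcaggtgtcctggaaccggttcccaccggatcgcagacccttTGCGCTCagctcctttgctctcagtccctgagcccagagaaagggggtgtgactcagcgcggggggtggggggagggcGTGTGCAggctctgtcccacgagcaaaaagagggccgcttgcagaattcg
Slc30a1 (chr1:191906531-191906780, + strand): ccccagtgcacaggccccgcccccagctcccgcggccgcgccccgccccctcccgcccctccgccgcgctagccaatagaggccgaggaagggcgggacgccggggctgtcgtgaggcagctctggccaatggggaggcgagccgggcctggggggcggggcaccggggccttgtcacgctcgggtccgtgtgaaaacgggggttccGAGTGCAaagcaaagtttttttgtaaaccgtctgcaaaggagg
The core was searched as TGCACNC and as TGCGCNC, on both strands, in the window from 250 bases before to 50 bases after the start, of which the last 50 are not printed. The window of Mt2 held 4 matches, of which the one in the 50 bases after the start is not seen above, and that of Mt1 held 3, of which 2 lie after the start. Slc30a1 held 2 matches, 1 of them after the start, and both lay on the other strand. Of 32851 RefSeq windows of this length, 25.7% held at least 1 match, 6.14% at least 2, 1.31% at least 3 and 0.295% at least 4, with overlapping matches counted once, and the 2 spellings were found in 12.6% and 15.4%. RefSeq windows were at hand for 7 of the 9 genes. Matches more than 50 bases after these starts, or near other starts of a gene, were not searched for, in Mt1 as elsewhere. Slc30a4 held 3 matches, Slc30a2 held 2, Slc30a10 held 3 at 2 places, since 2 of them overlap on opposite strands, and of the 2 starts of Slc39a5 one held 1 and the other 0, while Slc39a4 and Slc39a14 are named only. The 250 bases before the start of Slc30a2, and before the Slc39a5 start with 0 matches, lie inside the annotated span of the gene. These are matches of letters, not sites of binding, and the map of the windows shows where they fall.

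**Figure D1:**
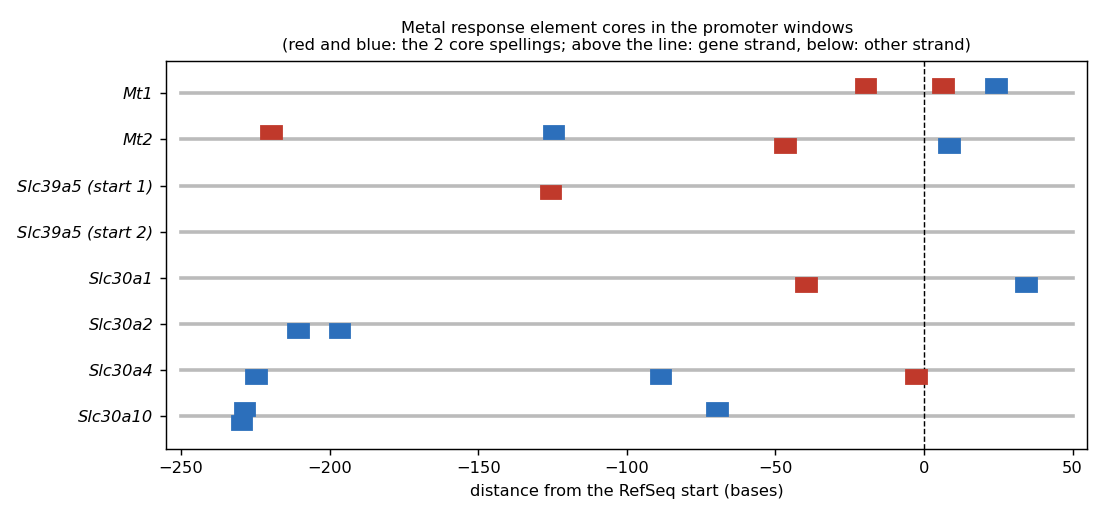
Matches to the core of the metal response element in the promoter windows of 7 zinc genes, against distance from the RefSeq start in bases (Slc39a5 has 2 starts). Boxes above the line are on the gene's strand and boxes below it on the other strand, red for TGCACNC and blue for TGCGCNC, and Mt2 carries 4 matches and Mt1, Slc30a4 and Slc30a10 carry 3 each, with 2 of those of Slc30a10 overlapping.

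Levels are given as normalized counts, the authors' counts divided by a size factor per library, in the order of replicates 1, 2 and 3. Folds come from edgeR's quasi-likelihood fit of the raw counts, with Benjamini-Hochberg adjustment over all genes tested, and a gene was called changed where the adjusted p was under 0.05 and the log2 fold change reached 1 in either direction. The 4 pairwise comparisons and their interaction were fitted in 1 model. The comparisons share groups, so they are not independent of each other. Since these are bulk libraries, fewer cells of a type and less RNA per cell cannot be told apart.

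Mt1, on chromosome 8 at 94179082 to 94180327 of GRCm38, held the highest counts of the metallothionein genes listed, though those of Mt2 may be too low, as described below. It rose in small intestinal culture but not in large intestinal culture. SI crypts held 8358, 8197 and 7558 normalized counts and LI crypts 10685, 8329 and 11581. SI monolayers held 30228, 29651 and 32211 and LI monolayers 7663, 7948 and 7392. The 3 SI monolayer libraries were far above the other 9, which lay between 7392 and 11581 with overlaps between neighboring groups. By edgeR, Mt1 rose 3.91-fold from SI crypts to SI monolayers (log2 fold change 1.97, SE 0.0967, adjusted p = 5.18e-10). The same step in the large intestine gave a log2 fold change of -0.37 (SE 0.0937, edgeR adjusted p = 0.00320), below the minimum fold change. SI crypts and LI crypts differed by -0.30 on the log2 scale (SE 0.0937, edgeR adjusted p = 0.0137), also below that minimum, while SI monolayers held 4.08-fold more than LI monolayers (log2 fold change 2.03, SE 0.0969, adjusted p = 5.34e-10).

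Mt2, the neighboring metallothionein gene on the same strand of chromosome 8 at 94172664 to 94173568, was also highest in SI monolayers, at far lower counts. SI crypts held 56.5, 65.7 and 73.3 normalized counts, LI crypts 129, 97.0 and 158, LI monolayers 202, 163 and 185, and SI monolayers 495, 367 and 312. No group overlapped another, in that rising order. Mt2 rose 6.12-fold from SI crypts to SI monolayers (log2 fold change 2.61, SE 0.226, edgeR adjusted p = 4.85e-08), whereas in the large intestine the log2 fold change was 0.57 (SE 0.213, edgeR adjusted p = 0.0274), under the minimum. SI monolayers held 2.17-fold more than LI monolayers (log2 fold change 1.12, SE 0.208, edgeR adjusted p = 0.000261). That call rested on the first SI monolayer library, without which the log2 fold change was 0.95. Between crypts Mt2 was at -0.93 on the log2 scale in SI relative to LI (SE 0.227, edgeR adjusted p = 0.00247), just short of the minimum fold change. It passed that minimum in 8 of 12 fits that left out 1 library, at up to -1.10, and under upper quartile scaling.

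The level of Mt2 carries a limit of annotation. Of its 588 exonic bases, 432 (73.5%) lie within an exon of the antisense gene Gm45774, which was listed at 0 to 9.79 normalized counts, and whether reads were counted by strand is not given in the sources used here. Reads falling on both genes may have been dropped, which was not tested. Per kilobase of exon, Mt1 exceeded Mt2 by a ratio of 59.1 ± 10.6 (SD, n = 3) in SI crypts, 38.1 ± 3.11 in LI crypts, 38.6 ± 9.98 in SI monolayers and 19.9 ± 2.72 in LI monolayers. The exon length used for Mt1, 1246 bases, is its whole annotated span with introns, so its level per kilobase may be too low. With limits on both genes, the size of this ratio is uncertain.

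Slc39a4 (chromosome 15, 76612383 to 76617384) encodes ZIP4, the brush border importer for dietary zinc whose loss causes acrodermatitis enteropathica in humans. It rose in large intestinal culture and was highest in LI monolayers. LI crypts held 14653, 19822 and 15682 normalized counts, LI monolayers 36644, 38967 and 37873, SI crypts 14176, 13723 and 12008, and SI monolayers 15023, 14904 and 15092. The LI monolayers stood apart from the other 9 libraries, among which SI monolayers overlapped LI crypts. The rise from LI crypts to LI monolayers was 2.33-fold (log2 fold change 1.22, SE 0.0930, edgeR adjusted p = 2.20e-08), and SI monolayers were lower than LI monolayers by edgeR (log2 fold change -1.30, SE 0.0932, adjusted p = 3.03e-08). SI monolayers and SI crypts differed by 0.21 (SE 0.0919, edgeR adjusted p = 0.0648) and the crypts of the 2 regions by -0.29 (SE 0.0919, edgeR adjusted p = 0.0155), neither of which was called.

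Slc39a5 (chromosome 10, 128395931 to 128401229) encodes ZIP5, an importer of the basolateral membrane of enterocytes that is also made in pancreatic acinar cells. Its RNA fell in culture in both regions, and in LI monolayers to the lowest level of the 4 groups. SI crypts held 19120, 17801 and 15939 normalized counts, LI crypts 7612, 7597 and 7822, SI monolayers 5340, 5500 and 5478, and LI monolayers 225, 228 and 232. All 4 groups were separate, in that falling order. The fall was 3.16-fold in the small intestine (log2 fold change -1.66, SE 0.0579, edgeR adjusted p = 1.34e-12) and 32.5-fold in the large intestine (log2 fold change -5.02, SE 0.0707, edgeR adjusted p = 6.55e-17). Slc39a5 was 2.36-fold higher in SI than in LI crypts (log2 fold change 1.24, SE 0.0572, edgeR adjusted p = 3.98e-11) and 24.3-fold higher in SI than in LI monolayers (log2 fold change 4.60, SE 0.0698, edgeR adjusted p = 3.07e-16).

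All 8 absorptive enterocyte markers lay lower in every SI monolayer library than in any SI crypt library, and their sum went from 844586 to 1360260 normalized counts in SI crypts to 276666 to 291231 in SI monolayers. In the large intestine the same markers summed to 12812 to 25860 in LI crypts and 9299 to 13806 in LI monolayers, and 7 of the 8 overlapped between these groups. The 5 colonocyte markers all lay lower in LI monolayers than in LI crypts, with sums of 57561 to 58517 and 271586 to 456867. The part of these cell types in the levels of Slc39a5 was not tested. Of the 5 acinar markers, Amy2a5 and Prss1 were at 0 in all 12 libraries and Cpa1 and Pnlip reached at most 4.17 and 6.72 normalized counts. Cela1, the fifth, held 726 to 794 in SI crypts, 318 to 357 in SI monolayers, 16809 to 28868 in LI crypts and 3631 to 3893 in LI monolayers.

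Slc39a14 (chromosome 14, 70303469 to 70351425) encodes ZIP14, which carries zinc as well as manganese and non-transferrin iron. It was higher in the small intestine in both preparations, and culture gave no call. SI crypts held 7692, 6400 and 6029 normalized counts and SI monolayers 7156, 7417 and 7236, against 2046, 2254 and 2182 in LI crypts and 2053, 1917 and 1995 in LI monolayers. The 6 small intestinal libraries were all above the 6 large intestinal ones, and within each region crypts and monolayers overlapped. Slc39a14 was 3.19-fold higher in SI than in LI crypts (log2 fold change 1.67, SE 0.0768, edgeR adjusted p = 3.67e-11) and 3.73-fold higher in SI than in LI monolayers (log2 fold change 1.90, SE 0.0774, edgeR adjusted p = 9.86e-12). Culture gave log2 fold changes of 0.15 (SE 0.0742, edgeR adjusted p = 0.0915) in the small and -0.07 (SE 0.0760, edgeR adjusted p = 0.405) in the large intestine.

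Slc30a1 (chromosome 1, 191906767 to 191913247) encodes ZnT1, the plasma membrane exporter that releases zinc from the cell. It was the 1 gene of the 9 without a call in any comparison. LI crypts were highest, with 2825, 2683 and 2187 normalized counts. SI crypts held 1434, 1614 and 1488, SI monolayers 1506, 1563 and 1495, and LI monolayers 1522, 1672 and 1574, and these 3 groups overlapped one another. LI monolayers were at -0.64 on the log2 scale relative to LI crypts (SE 0.0815, edgeR adjusted p = 2.74e-06) and SI crypts at -0.72 relative to LI crypts (SE 0.0817, edgeR adjusted p = 1.50e-06), both past the adjusted p and short of the minimum fold change.

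Slc30a2 (chromosome 4, 134343181 to 134354484) encodes ZnT2, which loads zinc into secretory vesicles of Paneth, mammary and acinar cells. It had the largest difference of the 9 genes between the crypts of the 2 regions and fell in culture in both. SI crypts held 4988, 4249 and 3551 normalized counts and SI monolayers 374, 328 and 417, against 71.4, 54.9 and 63.4 in LI crypts and 7.70, 13.8 and 27.7 in LI monolayers. All 4 groups were separate, and the LI monolayers rested on 8, 12 and 28 raw counts. SI crypts held 69.2-fold more than LI crypts (log2 fold change 6.11, SE 0.216, edgeR adjusted p = 1.35e-10), and SI monolayers 23.0-fold more than LI monolayers (log2 fold change 4.52, SE 0.269, edgeR adjusted p = 2.04e-08). The fall in culture was 11.1-fold in the small intestine (log2 fold change -3.48, SE 0.180, edgeR adjusted p = 3.66e-09) and 3.71-fold in the large intestine (log2 fold change -1.89, SE 0.330, edgeR adjusted p = 0.000224). Without the third LI monolayer library the fall in the large intestine was -2.60 and the difference between monolayers 5.20 on the log2 scale.

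The 7 Paneth markers moved in mixed directions within the small intestine. Ang4, at 65586 to 297988 normalized counts in SI crypts and 14929 to 15422 in SI monolayers, and Defa17, at 16580 to 88839 and 11514 to 12994, lay wholly lower in SI monolayers. Defa21 lay wholly higher, and the other 4 overlapped, Lyz1 and Defa24 among them. Their sum was 262231 to 1275890 normalized counts in SI crypts and 432699 to 468997 in SI monolayers. Each of the 7 lay higher in the SI libraries, both among crypts and among monolayers, with Lyz1 at 84331 to 359996 in SI crypts and 501 to 1715 in LI crypts. The sum of 29181 to 64542 in LI crypts was 87.6% to 96.4% Ang4, and in LI monolayers the sum was 3865 to 5033. The part of Paneth cells in the levels of Slc30a2 was not tested.

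Slc30a4 (chromosome 2, 122681233 to 122702663) encodes ZnT4, another transporter of intracellular vesicles. Its monolayer libraries lay above the crypt libraries in both regions, and the rise was called in the large intestine. SI crypts held 4848, 4568 and 4608 normalized counts, LI crypts 3793, 4177 and 4608, SI monolayers 7234, 7336 and 6651, and LI monolayers 8252, 9266 and 9175. Crypts of the 2 regions overlapped, and both monolayer groups were above all crypts. In the large intestine Slc30a4 rose 2.19-fold (log2 fold change 1.13, SE 0.0715, edgeR adjusted p = 5.63e-10), and in the small intestine the log2 fold change was 0.63 (SE 0.0710, edgeR adjusted p = 1.06e-06). The regions differed by 0.20 in crypts (SE 0.0710, edgeR adjusted p = 0.0284) and by -0.30 in monolayers (SE 0.0705, edgeR adjusted p = 0.00184), both under the minimum fold change.

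Slc30a10 (chromosome 1, 185454848 to 185468762) encodes a transporter of the ZnT family that is known mainly as a manganese exporter. It fell in culture in both regions, most in the large intestine. SI crypts held 1296, 1760 and 1262 normalized counts, LI crypts 881, 1780 and 408, SI monolayers 465, 428 and 384, and LI monolayers 45.2, 34.4 and 41.5. LI crypts spread over the widest range of the 4 groups and overlapped both small intestinal groups, and the LI monolayers lay below all others. The fall was 3.30-fold in the small intestine (log2 fold change -1.72, SE 0.443, edgeR adjusted p = 0.00837) and 24.3-fold in the large intestine (log2 fold change -4.60, SE 0.565, edgeR adjusted p = 6.56e-05; -3.93 without the second LI crypt library), and SI monolayers held 10.7-fold more than LI monolayers (log2 fold change 3.41, SE 0.568, edgeR adjusted p = 0.000807). Crypts of the 2 regions differed by 0.53 (SE 0.425, edgeR adjusted p = 0.330), but without the second LI crypt library the difference was 1.20 (edgeR adjusted p = 0.00354) and was called. The antisense transcript Gm2061 covers 533 (9.13%) of the exonic bases of Slc30a10 and leaves 5303 not shared. It held 303, 399 and 124 normalized counts in LI crypts, in the same order as Slc30a10. Reads on the shared bases cannot be told apart if they were not counted by strand.

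**Figure D2:**
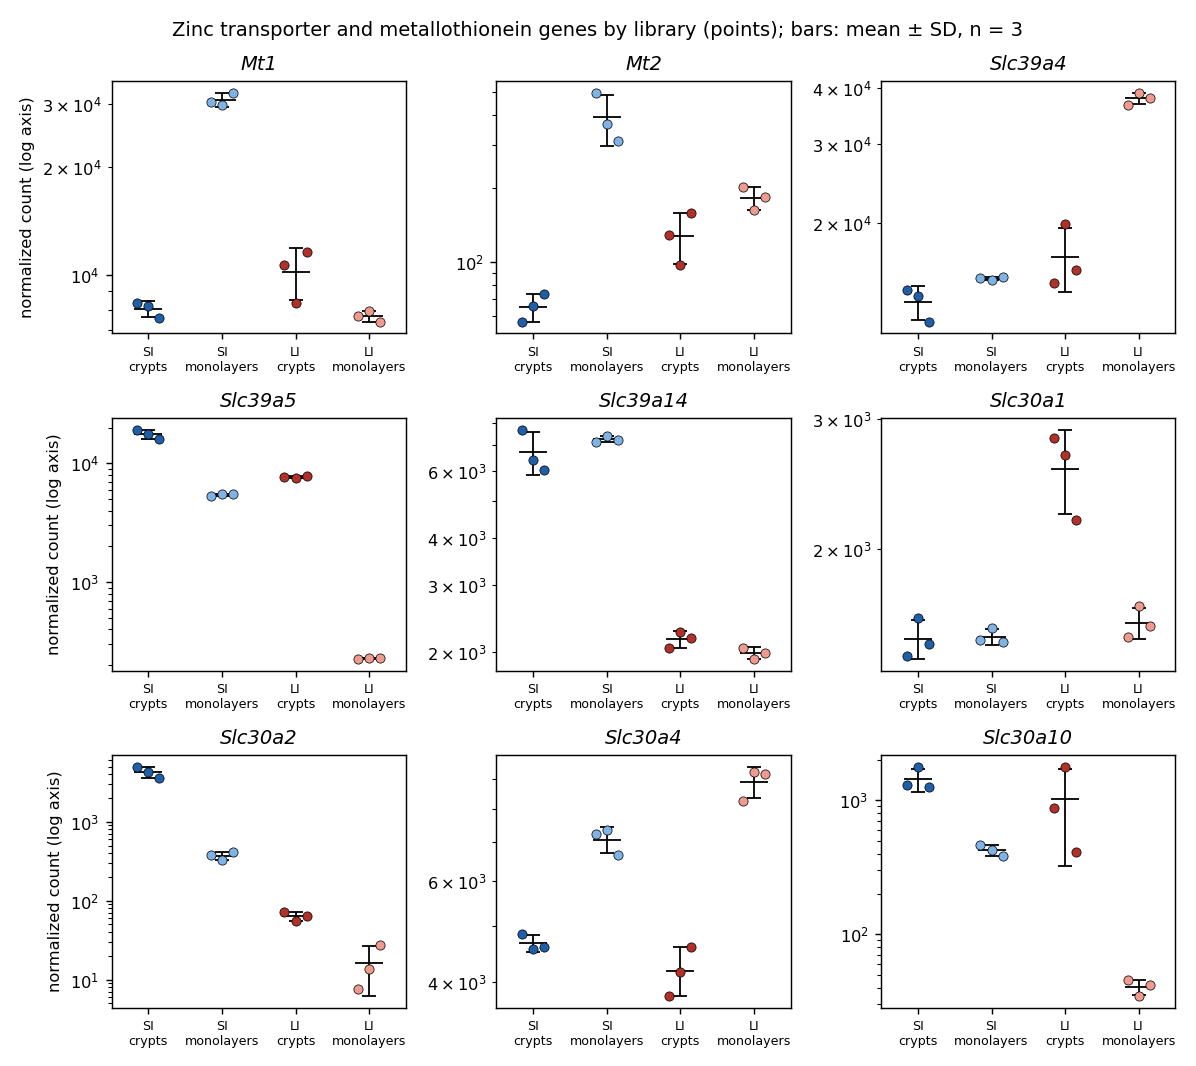
Normalized counts of the 9 zinc genes in each of the 12 libraries (points, logarithmic axis, its range set for each gene), with mean and SD of 3 libraries per group (bars). Mt1 stands apart in SI monolayers at 29651 to 32211, Slc39a4 in LI monolayers at 36644 to 38967, and Slc39a5, Slc30a2 and Slc30a10 are lowest in LI monolayers.

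The comparison of SI monolayers with SI crypts asks how far cultured small intestinal epithelium keeps the expression of fresh crypts. Both metallothionein genes rose and Slc39a5, Slc30a2 and Slc30a10 fell, so that 5 of the 9 genes were called, where 26.1% of all genes tested were called in either direction, 9.71% higher and 16.4% lower. The remaining 4, Slc39a4, Slc39a14, Slc30a1 and Slc30a4, had log2 fold changes from 0.04 to 0.63. The libraries of both groups did not overlap for 7 of the 9 genes, against 66.4% of all genes tested. The median log2 fold change was 0.15 over the 9 genes and -0.05 over all genes tested.

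In the large intestine, Slc39a4 and Slc30a4 rose in culture and Slc39a5, Slc30a2 and Slc30a10 fell. These 5 of 9 calls stand against 38.0% of all genes tested, with 14.5% higher and 23.5% lower. Mt1, Mt2, Slc39a14 and Slc30a1 were not called. Libraries did not overlap for 8 of the 9 genes, against 73.0% of all genes, and the median log2 fold change was -0.37 for the 9 genes and -0.05 for all genes.

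Between the crypts of the 2 regions, Slc39a5, Slc39a14 and Slc30a2 were higher in the small intestine and no member was called lower. The 3 of 9 calls stand against 22.7% of all genes tested, 11.6% higher and 11.1% lower. Libraries did not overlap for 6 of the 9 genes, against 58.6% of all genes, and the median log2 fold change was 0.20 against 0.06. Mt2, near the minimum fold change, was added as lower in SI crypts in 8 of 12 fits that left out 1 library, and without the second LI crypt library Slc30a10 was added too, as higher, for a count of 5.

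Between monolayers of the 2 regions, 6 genes were higher in SI monolayers, Mt1, Mt2, Slc39a5, Slc39a14, Slc30a2 and Slc30a10, and Slc39a4 was higher in LI monolayers. The 7 of 9 calls stand against 21.2% of all genes tested, 12.4% higher and 8.88% lower in SI. Slc30a1 was at -0.03 on the log2 scale (SE 0.0819, edgeR adjusted p = 0.768), and Slc30a4 was under the minimum fold change. Libraries did not overlap for 8 of the 9 genes, against 62.4% of all genes, and the median log2 fold change was 1.90 against 0.02.

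**Figure D3:**
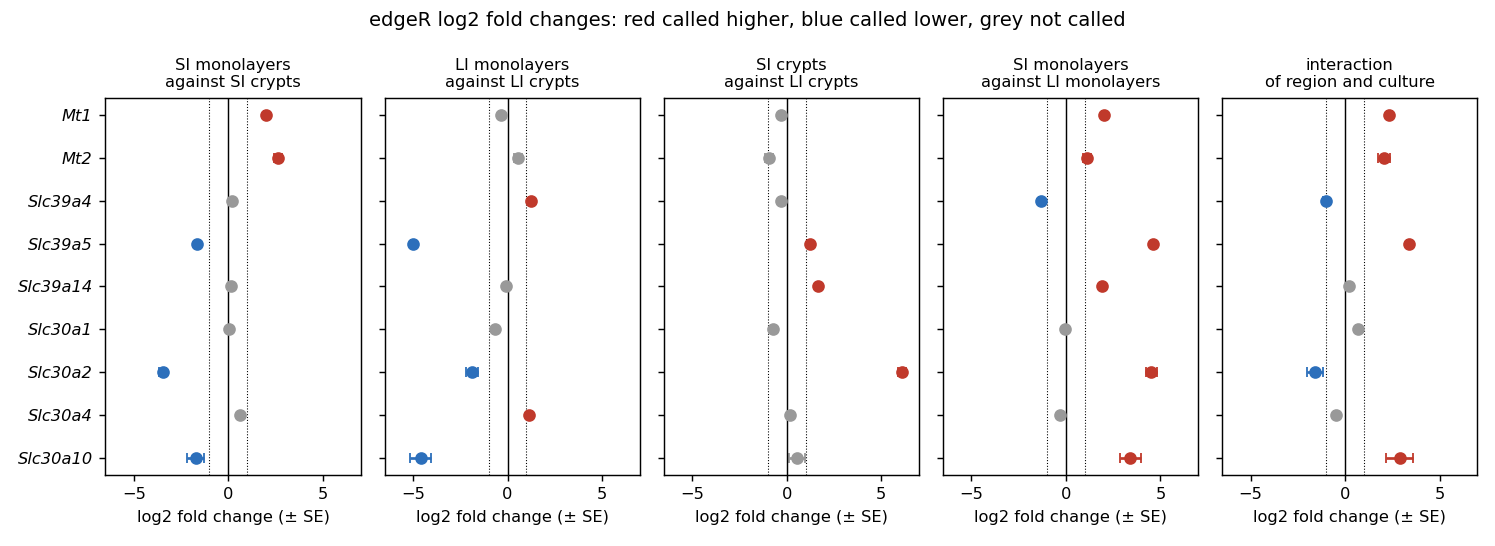
Log2 fold changes of the 9 zinc genes with their standard errors in the 4 pairwise comparisons and the interaction of region and culture (edgeR, 3 libraries per group; red called higher, blue called lower, grey not called; dotted lines at a log2 fold change of 1 in either direction). Slc30a2 reaches 6.11 between crypts and Slc39a5 falls to -5.02 in large intestinal culture, and Slc30a1 stays between the dotted lines in every panel.

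The interaction asks whether culture moved a gene differently in the 2 regions, as the log2 fold change of culture in the small intestine minus that in the large intestine. It was called for 6 of the 9 genes, against 20.0% of all genes tested, 11.4% positive and 8.51% negative. Mt1 had the value 2.33 (SE 0.134, edgeR adjusted p = 9.13e-09), from log2 fold changes of 1.97 in the small and -0.37 in the large intestine. For Mt2 the value was 2.05 (SE 0.308, edgeR adjusted p = 4.93e-05), for Slc39a5 3.36 (SE 0.0872, edgeR adjusted p = 2.87e-13) and for Slc30a10 2.88 (SE 0.715, edgeR adjusted p = 0.00962), or 2.21 without the second LI crypt library. Slc39a5 and Slc30a10 thus fell more in the large intestine. Slc30a2 had -1.59 (SE 0.419, edgeR adjusted p = 0.00787), a larger fall in the small intestine, but without the third LI monolayer library this was -0.84 (edgeR adjusted p = 0.133). Slc39a4 had -1.01 (SE 0.130, edgeR adjusted p = 2.00e-05), at the edge of the minimum fold change, and its values without 1 library ran from -1.15 to -0.89, with the call lost in 10 of 12 such fits. Slc30a1 and Slc30a4 had 0.69 (SE 0.116, edgeR adjusted p = 0.000143) and -0.50 (SE 0.100, edgeR adjusted p = 0.000692), under the minimum, and Slc39a14 had 0.22 (SE 0.106, edgeR adjusted p = 0.0976).

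Normalized counts per kilobase of exon put genes of different length on 1 scale. The length is that of all annotated exons of a gene joined, not of the transcripts present, so shares and ranks between genes depend partly on the annotation. On this scale Slc39a5 was the leading ZIP gene of SI crypts, with 39.9% ± 1.78 (SD, n = 3) of the sum over 14 ZIP genes, ahead of Slc39a4 with 21.6% ± 0.884. In LI crypts Slc39a4 held 28.5% ± 3.32 and Slc39a5 18.4% ± 0.967, and in SI monolayers 31.1% ± 0.183 and 15.8% ± 0.248. In LI monolayers Slc39a4 alone made up 58.0% ± 0.186 and Slc39a5 0.490% ± 0.0136. The order of the brush border and the basolateral importer was therefore reversed between SI crypts and the other groups. The ratio of Slc39a4 to Slc39a5 per kilobase was 0.541 ± 0.0106 in SI crypts, 1.56 ± 0.268 in LI crypts, 1.98 ± 0.0372 in SI monolayers and 119 ± 3.20 in LI monolayers, with no overlap between groups. Slc39a14 made up 3.20% and 4.44% of the ZIP sum in SI crypts and SI monolayers and 1.09% and 0.899% in the large intestinal groups. Of the 2584 exonic bases of Slc39a7, 2084 (80.65%) are shared with Gm20427 on the same strand. Its level, and with it the ZIP sum, may be too low, which was not tested.

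Among 10 ZnT genes, Slc30a2 held 24.3% ± 2.74 (SD, n = 3) of the sum per kilobase in SI crypts and 2.93% ± 0.355 in SI monolayers, and 0.566% and 0.133% in LI crypts and LI monolayers. Slc30a4 held 17.4% ± 1.16 in SI crypts, 24.3% ± 2.26 in LI crypts, 36.1% ± 1.75 in SI monolayers and 47.1% ± 1.42 in LI monolayers. Per kilobase, the vesicle transporter that led the members of this family was thus Slc30a2 in SI crypts and Slc30a4 elsewhere. Without division by length, Slc30a4 was the higher in SI crypts too, with a mean of 4675 normalized counts against 4263. The share of Slc30a1 was 15.5% ± 2.24 in LI crypts and between 5.88% and 8.79% in the other groups, and Slc30a10 fell from 5.48% ± 3.52 in LI crypts to 0.202% ± 0.0349 in LI monolayers. The exon length of Slc30a10 comes from an earlier version of its gene model than that of the counts.

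**Figure D4:**
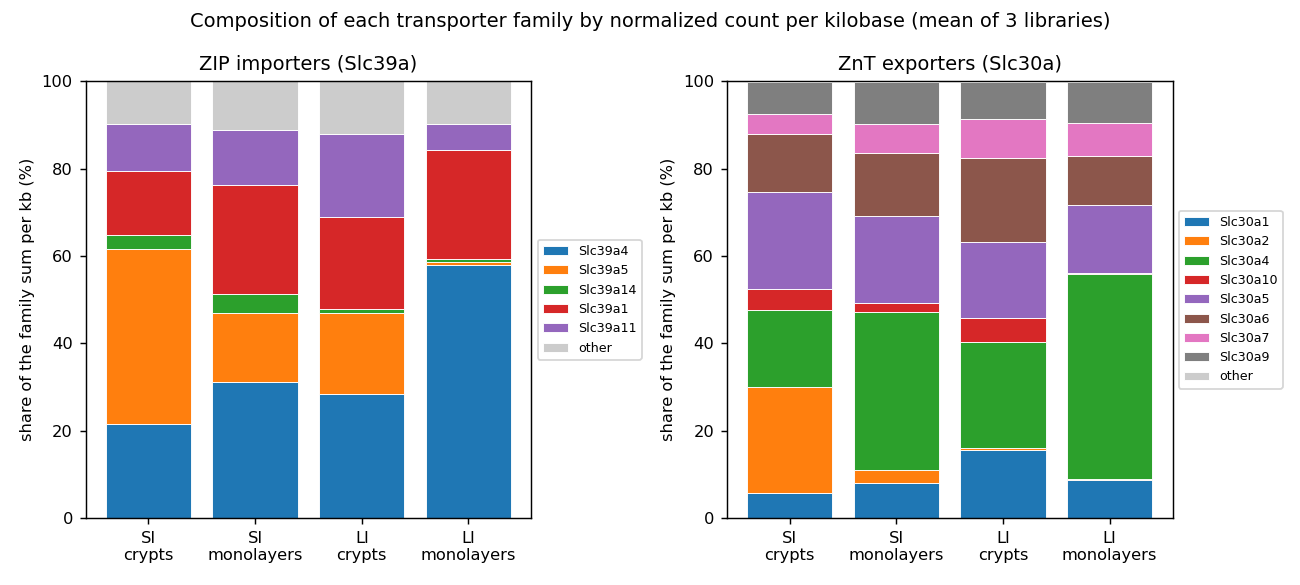
Share of each gene in the summed normalized count per kilobase of the 14 ZIP genes (left) and the 10 ZnT genes (right), as the mean of 3 libraries in each group, with minor genes joined as other. Slc39a5 takes 39.9% of the ZIP sum in SI crypts and 0.490% in LI monolayers, where Slc39a4 takes 58.0%, and Slc30a2 takes 24.3% of the ZnT sum in SI crypts.

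Among the other genes of zinc handling, the importers Slc39a6 and Slc39a10 rose and Slc39a8 and Slc39a11 fell in large intestinal culture. Of the 11 other ZIP genes, 1 was higher in small intestinal culture and 2 were higher and 2 lower in large intestinal culture, and their median log2 fold changes over the 5 comparisons ran from -0.29 to -0.04, where those of all genes tested ran from -0.05 to 0.06. These counts stand against 26.1% and 38.0% of all genes tested. Slc39a10, an importer of the plasma membrane that pairs with ZIP6, rose in both, from 441 to 497 normalized counts in SI crypts to 896 to 1156 in SI monolayers (log2 fold change 1.17, SE 0.0976, edgeR adjusted p = 3.37e-08) and from 455 to 523 in LI crypts to 1974 to 2106 in LI monolayers (log2 fold change 2.11, SE 0.0980, edgeR adjusted p = 1.28e-11). Its partner Slc39a6 rose from 130 to 155 in LI crypts to 1163 to 1281 in LI monolayers (log2 fold change 3.15, SE 0.133, edgeR adjusted p = 4.01e-12). Slc39a11 fell from 11797 to 12379 in LI crypts to 4002 to 4343 in LI monolayers (log2 fold change -1.47, SE 0.0542, edgeR adjusted p = 8.30e-13). Slc39a8, which carries manganese and zinc, fell from 2110 to 2456 to 731 to 918 (log2 fold change -1.38, SE 0.0939, edgeR adjusted p = 1.38e-09).

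Between regions, Slc39a6 was the 1 other ZIP gene called in crypts, higher in SI (log2 fold change 1.79, SE 0.132, edgeR adjusted p = 1.01e-08), and Slc39a8 the 1 called in monolayers, also higher in SI (log2 fold change 1.05, SE 0.0937, edgeR adjusted p = 9.89e-08), where 22.7% and 21.2% of all genes were called. Slc39a8 was not called without the third LI monolayer library. Slc39a10, at -0.97 on the log2 scale in SI relative to LI monolayers (edgeR adjusted p = 2.58e-07), was called there in 1 of 12 fits that left out 1 library and in 4 of 8 other settings, DESeq2 among them. The interaction was called for Slc39a8 at 1.96, Slc39a11 at 1.39 and Slc39a6 at -2.31 (edgeR adjusted p = 9.11e-09, 8.52e-10 and 3.58e-08), 3 of the 11 genes against 20.0% of all genes. Of the 6 other ZnT genes, Slc30a8, the transporter of insulin granules, had a count of 0 in all 12 libraries, where 3 counts correspond to 0.0394 to 0.0508 CPM (counts scaled to the library total), and 5 were tested. Slc30a5, of the early secretory pathway, was higher in SI than in LI crypts, with 7257 to 8472 against 3811 to 4156 normalized counts (log2 fold change 1.02, SE 0.0585, edgeR adjusted p = 5.04e-10). This value lies at the edge of the minimum fold change and was not called in 8 of 12 fits that left out 1 library nor in 6 of 8 other settings, DESeq2 among them. It was the 1 call among these 5 genes in the 5 comparisons, where 20.0% to 38.0% of all genes tested were called. Without the first LI crypt library, however, Slc30a3 was called in large intestinal culture and between crypts. The median log2 fold changes of these 5 genes ran from -0.39 to 0.49.

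Of the 5 other metallothionein, regulator and sensor genes, among them Zng1, the gene of a zinc chaperone, 1 was called in small intestinal culture, 2 in large intestinal culture, 2 between crypts, 1 between monolayers and 2 in the interaction, where the shares of all genes called were 26.1%, 38.0%, 22.7%, 21.2% and 20.0%. Their median log2 fold changes ran from -0.30 to 0.54, and those of all genes from -0.05 to 0.06. Mtf1, the gene of the metal-sensing factor, was not called in any comparison, with log2 fold changes from -0.30 to 0.26 and 1954 to 2540 normalized counts over the 12 libraries. The gene of the zinc-sensing receptor, Gpr39, rose in large intestinal culture from 331 to 377 to 1251 to 1466 normalized counts (log2 fold change 2.02, SE 0.114, edgeR adjusted p = 1.35e-10) and was higher in SI than in LI crypts (log2 fold change 1.42, SE 0.113, edgeR adjusted p = 2.67e-08), with an interaction of -1.41 (SE 0.155, edgeR adjusted p = 2.08e-06). Of the minor metallothioneins, Mt3, best known from the brain, fell in large intestinal culture from 328 to 614 to 106 to 215 normalized counts (log2 fold change -1.67, SE 0.287, edgeR adjusted p = 0.000134). Between crypts Mt3 was at -0.99 in SI relative to LI (edgeR adjusted p = 0.00792) and was called in 8 of 12 fits that left out 1 library and in 7 of 8 other settings. Mt4, known from squamous epithelia, lay between 0 and 44.5 normalized counts, with 8, 0 and 0 raw counts in SI crypts, so its fitted folds depend on the prior count. They were 3.73 in small intestinal culture, -2.18 between crypts, 1.97 between monolayers and 4.15 for the interaction (edgeR adjusted p = 0.00123, 0.0481, 0.0305 and 0.00693). Of the fits that left out 1 library, 8 of 12 lost the call between crypts and 4 of 12 that between monolayers. Of the exonic bases of Gpr39, 39.87% are shared with Lypd1 on the opposite strand.

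**Figure D5:**
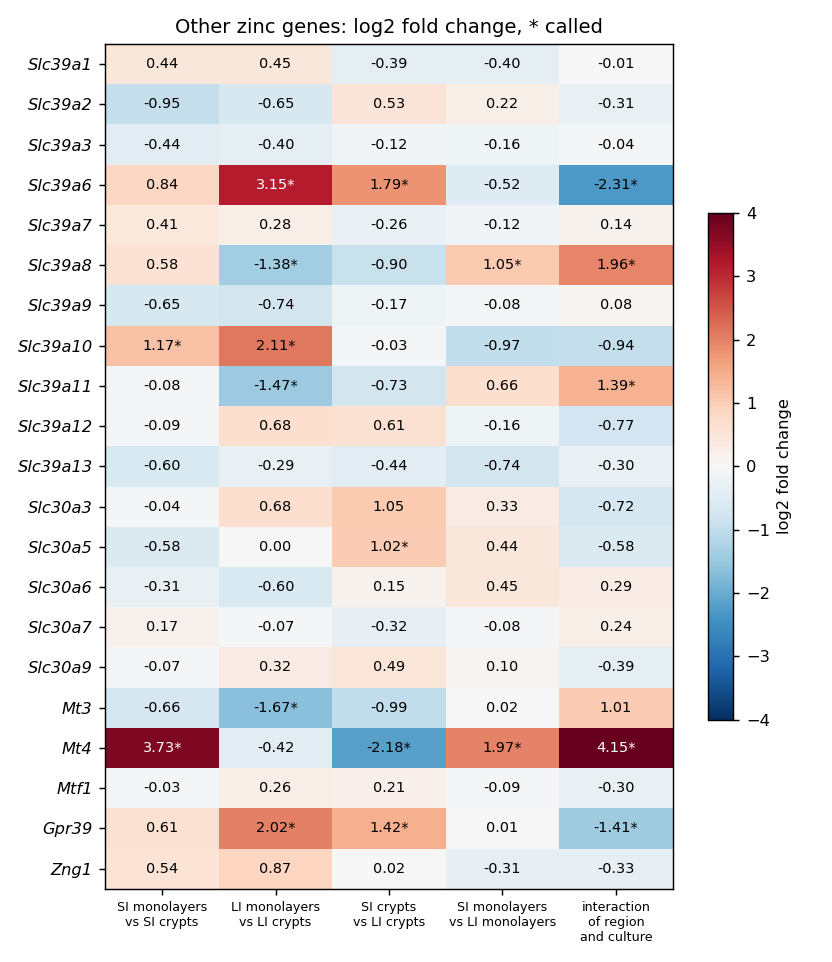
Log2 fold changes (color and number) of 21 other genes of zinc handling in the 4 pairwise comparisons and the interaction, with an asterisk on those called by edgeR. Slc39a6 and Slc39a10 rose in large intestinal culture by 3.15 and 2.11 while Slc39a8 and Slc39a11 fell, and Mtf1 carries no asterisk.

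The genes most like each member over the 12 libraries were found by Pearson's r of log2 CPM among 9211 genes with a mean of at least 10 CPM. All libraries of a group share their tissue and preparation, so these values describe group patterns. Nearest to Mt1 were Ldhd (r = 0.985) and Srebf1 (0.979), and to Mt2 Ddit4 (0.969) and Rnf113a2 (0.965). Slc39a4 was nearest to Cnksr3 (0.988) and Serinc1 (0.987), Slc39a5 to Slc18b1 (0.998) and Mlec (0.997), and Slc39a14 to Tkfc (0.997) and Sephs2 (0.996). For the exporters these were Tcf7l2 (0.981) and Plpp5 (0.971) for Slc30a1, Pdxk (0.996) and Agmo (0.995) for Slc30a2, Cfl2 (0.995) and Uba6 (0.995) for Slc30a4, and Cdx2 (0.990) and B4galnt2 (0.982) for Slc30a10.

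Libraries held 59016196 to 76216530 counts, and in each 73.4% to 77.4% of the counts from 1 to 20 were even, so both mates of a pair may have been counted. The 5 epithelial markers were high throughout, at 641518 to 1500030 normalized counts in sum, and mesenchymal markers summed to 459 to 3365. All 6 immune markers lay lower in monolayers than in crypts of the same region. Their sum was 66.6% to 98.0% Cd74, and the other 5 summed to 6294 to 9703 normalized counts in SI crypts, 2328 to 2772 in LI crypts, 357 to 454 in SI monolayers and 128 to 176 in LI monolayers. All 6 goblet markers lay lower in LI monolayers than in LI crypts, with sums of 102746 to 115023 and 1102790 to 1387030, and 5 of the 6 lay lower in SI monolayers than in SI crypts. Mitochondrial transcripts took 4.56% to 9.16% of the counts in SI crypts, 2.25% to 2.59% in LI crypts, 0.472% to 0.559% in SI monolayers and 0.704% to 0.750% in LI monolayers, with no overlap between groups. The part of these cells and of this share in the levels of the 9 genes was not tested.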

How the data were processed

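RNA sequencing of 12 libraries in 4 groups of 3 was used. The authors aligned reads to GRCm38 with STAR 2.7.9a, counted them with featureCounts 2.0.2 (versions per the labels) and deposited raw counts per gene. They also deposited the same values divided by DESeq2 size factors, a signal called the normalized count here. Strand and mate settings are not given in the sources used here. Positions and exon lengths come from GENCODE M21, of the same build.

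Counts were tested with edgeR 4.0.16 in R 4.3.3: filterByExpr, TMM and robust quasi-likelihood fits of 4 group means over 12 libraries, with Benjamini-Hochberg adjustment over 19581 genes. The SE is the log2 fold change divided by the square root of F. The fit was tested on simulated data. Depth was 59016196 to 76216530 counts. SD values rest on the spread between libraries of the same group and SE values on that spread shared over all 4 groups. The limit at 3 counts covers counting error only.

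The members and gene lists were chosen with earlier results of these data known. The text names the 9 members, genes of 3 lists of other zinc genes that were called in the interaction and up to 2 per list in the other comparisons, and the 2 genes most like each member (Pearson's r of log2 CPM, prior count 2). Other genes, such as Mtf1 and Slc30a8, were chosen after their values were seen. Alternatives were DESeq2 1.42.0, upper quartile scaling, DESeq2 size factors in edgeR, no filter, no minimum fold change, at least 10 counts in every library, a replicate block, halved counts, only the 2 groups compared, and each library left out. Samples with the same number did not deviate together (r from -0.0516 to 0.0563 over 12 pairs).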

Additional observations from a re-analysis of the deposited data

Results flagged for a closer look

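In 6 of the 9 zinc genes the effect of culture differed between the small and the large intestine by a test of the difference itself (edgeR interaction, Benjamini-Hochberg adjusted p under 0.05 and a difference of at least 1 on the log2 scale), as it did in 20.0% of all genes tested. The difference, small minus large intestine, was 2.33 for Mt1, 2.05 for Mt2, 3.36 for Slc39a5 and 2.88 for Slc30a10. It was -1.01 for Slc39a4, where the call was lost in 10 of 12 fits that left out 1 library, under upper quartile scaling and with no filter, and -1.59 for Slc30a2, where it was lost without the third LI monolayer library. In the small intestine all 3 monolayer libraries of Mt1 and Mt2 were above all crypt libraries, and for Slc39a4 all 3 monolayer libraries of the large intestine were above all of its crypt libraries. Slc39a5, Slc30a2 and Slc30a10 were lower in 3 of 3 monolayer libraries than in any crypt library of the same region, in both regions. Of all genes tested, 66.4% in the small and 73.0% in the large intestine had no overlap between monolayer and crypt libraries.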

How the results depend on the processing

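Of 931 values of the 9 genes under an alternative, 891 kept their direction and their side of the threshold, 22 newly passed it, 14 no longer passed it and 4 changed sign. The 4 were of Slc30a1, near 0 in each: -0.024 for SI monolayers against SI crypts with at least 10 counts in every library, and 0.0055, 0.0082 and 0.030 between monolayers without SI monolayers 1, SI monolayers 3 and LI monolayers 2, in a range of -0.033 to 0.030 over the fits that left out 1 library. Counts of called genes moved with no minimum fold change to 8 in large intestinal culture and 8 between crypts, by construction. Leaving out 1 library at a time gave 5 to 5 in each culture comparison, 3 to 5 between crypts, 6 to 7 between monolayers and 4 to 6 for the interaction, where Slc39a4 and, without LI monolayers 3, Slc30a2 lost the call; the cause was not tested. Slc39a4 also lost it under upper quartile scaling (-0.94) and with no filter (-0.98). Slc30a2 could not be tested with at least 10 counts in every library, since 1 library held 8. Upper quartile scaling shifted the median of all genes in large intestinal culture by -0.12.

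The shared replicate numbers give no pairing in the labels. With the replicate block the counts of called genes were 5, 5, 3, 7 and 6, as without it. No same-number correlation of 12 was over 0.1, and in 8 of 24 checks a sample correlated best with its own number. DESeq2 gave the same 5 counts.

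Counting error limits Slc30a2 and Mt4 in LI monolayers and Mt4 in SI crypts, which rest on few reads.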
